A study of Mus musculus with 4 samples.

Results

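Genes that mark the layers and projection classes of cortical neurons were followed in the prelimbic cortex of adult male mice, after exposure to fluoxetine before birth and without it. The set held 30 genes: 11 markers of the superficial layers, 18 of the deep layers and Rorb, which marks the layer between them. These genes were chosen by name, with earlier results of these data known. A gene was read from probe sets annotated to its symbol alone, and where it had several, the brightest on average stood for the gene. In this way 29 of the 30 genes, 11 superficial, 17 deep and Rorb, were measured among the 18193 genes of the table, through 69 of its 34945 probe sets with 1 symbol. The missing gene was Etv1, a layer 5 transcription factor, whose 3 probe sets are annotated to a predicted gene as well. Of the 29, 22 lay above the median level of all genes, which was 7.87 on the log2 intensity scale. The dimmest main probe sets were those of Ntng2, Mdga1 and Syt6, at percentiles 24.9, 26.4 and 30.7 of the gene means.

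The 4 arrays came from male mice on postnatal day 90: 2 of mice exposed prenatally to fluoxetine, a selective serotonin reuptake inhibitor, and 2 of untreated control mice. RNA came from tissue punches of the medial prefrontal cortex, of which the prelimbic area is a part. Strain, dose and the window of exposure are not stated in the labels, nor whether an array held 1 mouse or several or whether mice of a group shared a litter. The design text calls the arrays of a group biological duplicates, and the p-values below measure only the spread between these arrays. With 2 arrays against 2, an exact two-sided permutation test of a single gene cannot give a p below 0.333.

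The cerebral cortex is built of layers whose excitatory neurons differ in where they send their axons. Superficial-layer neurons project mainly within the cortex and across the corpus callosum, layer 5 holds the neurons that project to the brainstem and spinal cord, and layer 6 holds those that project to the thalamus. Below them lies layer 6b, a thin remnant of the embryonic subplate. Transcription factors that set these identities in the embryo, such as Fezf2 and Tbr1, stay expressed in the adult, so their transcripts are used to read the layers of a sample. Rodent prelimbic cortex lacks a granular layer 4.

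Cortical excitatory markers were bright on all arrays: the vesicular glutamate transporter gene Slc17a7 read 9.51 and 9.46 with fluoxetine and 9.46 and 9.49 without. Untreated replicate 2 stood apart in markers of neighbouring tissue. It was the highest array for 20 of 20 measured markers of striatal medium spiny neurons, whose mean log2 intensity was 8.73 and 8.96 with fluoxetine, against 8.82 and 9.68 without. Summed over these markers, the log2 of the intensity was 13.99 to 14.15 with fluoxetine and 14.03 to 14.78 without. No marker was at 0, and the dopamine receptor gene Drd2 read 6.34 and 6.87 with fluoxetine, against 6.78 and 8.24 without. Untreated replicate 2 was also the highest array for 13 of 14 oligodendrocyte markers, whose mean was 10.90 and 10.89 with fluoxetine, against 10.90 and 11.18 without. Among all genes, 36.1% were highest on this array. Several layer markers are also transcribed in striatal neurons, so the differences of those markers, and of the members past the unadjusted threshold below, are also given without this array.

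The layer markers showed no difference that passed correction over all genes. In the limma fit, 0 of the 29 members and 0 of 18193 genes had an adjusted p below 0.05, while 1266 genes had an unadjusted p below 0.05. Members past that unadjusted threshold were Cux2, Fezf2 and Tox, which were higher with fluoxetine, and Syt6 and Tle4, which were lower. These are 5 of 29 members, against a background of 6.96% of all genes (3.45% higher, 3.51% lower). Under the other processing settings and with each array left out in turn, Fezf2 passed in 10 of 11, Syt6 in 8 of 10, Cux2 in 7 of 11, Tox in 4 of 11 and Tle4 in 3 of 11. These tallies are not alike: Fezf2 has 1 probe set, so the probe set choices could not change its difference, while the other genes have several. The level filter and the fit without the intensity trend kept the differences and changed only the p. With an array left out, 1 group is a single array. The spread then comes from the other group's 2 arrays and the prior over all genes, and the lone array is assumed to vary like them. In such fits 2.03% of all genes passed without fluoxetine replicate 1, 6.19% without fluoxetine replicate 2, 9.43% without untreated replicate 1 and 8.57% without untreated replicate 2. The 29 members had a median log2 difference of 0.02, fluoxetine minus untreated, against −0.02 over all genes. Both fluoxetine arrays lay above both untreated arrays for 8 members and below them for 4, where all genes gave 15.5% and 22.3%. Among genes above the median level, where 22 of the 29 lay, the shares were 21.8% and 16.9%. The median size of the group difference was 0.09 in the members. The 2 fluoxetine arrays differed from each other by a median of 0.11 and the untreated arrays by 0.07. In 6 members (Cux2, Calb1, Fezf2, Tle4, Syt6 and Tox) the difference between groups was larger than the gap within either group, 20.7% against 25.0% of all genes.

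**Figure D1:**
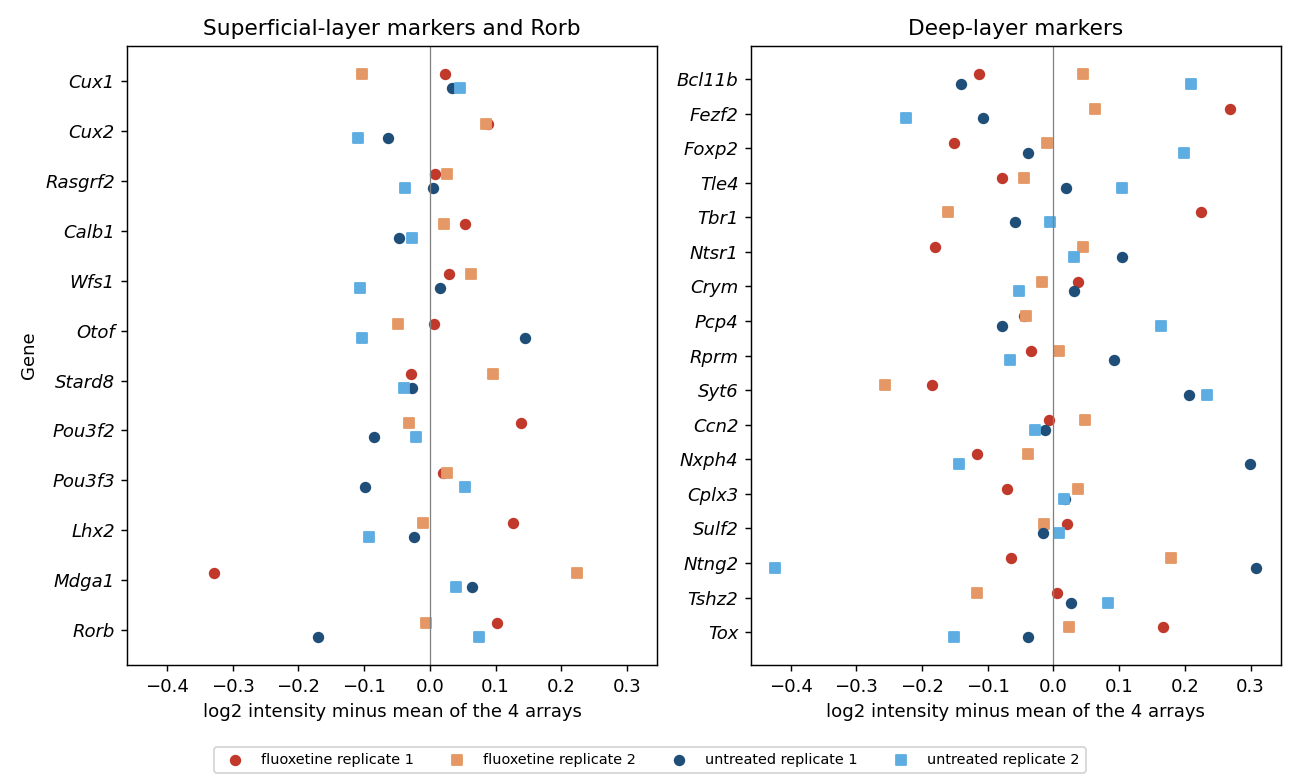
Log2 intensity of each of the 29 layer markers on each array (x axis, minus the gene's mean over the 4 arrays), with fluoxetine arrays in red and orange above untreated arrays in blue. For Syt6 the fluoxetine arrays, at 6.01 and 5.94, lie clear of the untreated ones at 6.40 and 6.42, while for most genes the colours mix.

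Of the 11 superficial-layer markers, 1, Cux2, was higher at an unadjusted p below 0.05, against 3.45% of all genes, and 10 did not pass. Their median log2 difference was 0.07, with 8 positive and 3 negative, where 42.5% of all genes were positive. Of genes above the median level, where 8 of the 11 lay, 4723 of 9097 were positive. The median difference of the 11 was 0.04 without fluoxetine replicate 2 and 0.03 after another quantile normalization. The count of 1 was 0 without fluoxetine replicate 1 (2.03% of all genes), 0 without fluoxetine replicate 2 (6.19%) and 2 without untreated replicate 1 (9.43%). For 5 members both fluoxetine arrays were above both untreated arrays, namely Cux2, Rasgrf2, Calb1, Wfs1 and Lhx2, and for Cux1 both were below. Among all genes above the median level, 21.8% were higher and 16.9% lower in this way. In bulk tissue, fewer cells of a type and less RNA per cell cannot be told apart.

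Cux2 encodes a homeodomain transcription factor of the upper layers that shapes dendrites and spines. It read 10.32 and 10.31 with fluoxetine, against 10.16 and 10.12 without. The groups did not overlap and the arrays of a group lay close together, 10.31 ± 0.0019 with fluoxetine and 10.14 ± 0.03 without (SD, n = 2 each). The log2 difference was 0.17 (SE 0.05; limma, unadjusted p = 0.0125, adjusted p = 0.696), or 1.13-fold, and 0.15 without untreated replicate 2. Without fluoxetine replicate 1 or 2 it was 0.17 in both fits and not past the unadjusted threshold. Its other 2 probe sets differed by 0.14 and −0.08, with overlapping groups. The paralogue Cux1, read by 9 probe sets, differed by −0.08 (SE 0.07) on its main one, and its others ran from −0.07 to 0.24. Its positive values of 0.23 and 0.24 came from probe sets with means of 2.38 and 2.51, near the floor of the table.

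Calb1, the calcium buffer calbindin, read 12.27 and 12.24 with fluoxetine, against 12.17 and 12.19 without. Its groups were apart by a small step, a log2 difference of 0.07 (SE 0.04). Lhx2, a LIM-homeodomain factor of cortical progenitors and upper layers, differed by 0.12 (SE 0.07), and Wfs1, an endoplasmic reticulum membrane protein of layer 2 neurons, by 0.09 (SE 0.06). Rasgrf2, an exchange factor for Ras, differed by 0.03 (SE 0.04) and Stard8 by 0.07 (SE 0.06). The POU factors Pou3f2 and Pou3f3, which act together in upper-layer neurons, differed by 0.11 (SE 0.10) and 0.05 (SE 0.06). All 5 of their probe sets with 1 symbol gave positive differences, from 0.05 to 0.21. Mdga1, an adhesion protein that binds neuroligin, differed by −0.10 (SE 0.19), and Otof, the calcium sensor otoferlin, by −0.04 (SE 0.12). The fluoxetine arrays themselves disagreed for Mdga1, at 5.47 and 6.03, against 5.87 and 5.84 without.

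Rorb encodes a nuclear receptor of layer 4 and upper layer 5, and its probe sets gave different answers. The main probe set read 9.83 and 9.72 with fluoxetine, against 9.56 and 9.80 without. These groups overlapped, and the log2 difference was 0.10 (SE 0.09), or 0.22 without untreated replicate 2 and −0.03 without untreated replicate 1. The second probe set read 9.14 and 9.03 with fluoxetine, against 8.81 and 8.66 without. The third probe set read 8.29 and 8.09 with fluoxetine, against 7.72 and 7.91 without. On these probe sets both fluoxetine arrays were above both untreated ones. Their log2 differences were 0.35 (SE 0.08) and 0.37 (SE 0.11), with SEs from a limma fit of each probe set apart. Taken over its probe sets, Rorb differed by 0.27 with its probe sets averaged (limma, unadjusted p = 0.00633) and by 0.37 with its most variable one (unadjusted p = 0.0103). When each probe set was fitted apart, an alternative chosen after the data were seen, limma gave unadjusted p-values of 0.00359 and 0.0102 for them and adjusted p-values of 0.360 and 0.410. That fit put 4 of the 69 member probe sets higher and 2 lower by the unadjusted threshold, against 6.4% and 3.04% of all probe sets. Probe sets of a gene read the same RNA and are not replicates.

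Deep-layer markers did not lean one way. Their median log2 difference was −0.03 over 17 members, with 7 positive and 10 negative; it was −0.01 without fluoxetine replicate 1, −0.0057 without untreated replicate 1 and 0.0025 after array medians were subtracted. The unadjusted threshold was passed by Fezf2 and Tox (higher) and by Syt6 and Tle4 (lower), and 13 members did not pass. Among all genes 3.45% passed as higher and 3.51% as lower. The count of 4 was 1 without fluoxetine replicate 1 (2.03% of all genes), 2 without fluoxetine replicate 2 (6.19%), 8 without untreated replicate 1 (9.43%) and 3 without untreated replicate 2 (8.57%). Both fluoxetine arrays lay above both untreated arrays for Fezf2, Tox and Ccn2 and below them for Syt6, Tle4 and Tshz2. All genes gave 15.5% and 22.3%, and genes above the median level, where 13 of the 17 lay, gave 21.8% and 16.9%.

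Fezf2, the zinc-finger factor that specifies subcerebral projection neurons of layer 5, had the largest positive difference of the 29 main probe sets. It read 10.03 and 9.82 with fluoxetine, against 9.65 and 9.53 without. Both fluoxetine arrays were higher than both untreated arrays, with group means of 9.92 ± 0.15 with fluoxetine and 9.59 ± 0.08 without (SD, n = 2 each). The log2 difference was 0.33 (SE 0.08; limma, unadjusted p = 0.00516, adjusted p = 0.696), a 1.26-fold higher level. It was 0.23 without fluoxetine replicate 1, where it did not pass the unadjusted threshold, and 0.43 without fluoxetine replicate 2. It was 0.27 without untreated replicate 2, the array with the high striatal markers. Fezf2 has 1 probe set here, so no second reading is at hand.

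The promoter windows of the genes with the largest differences in each direction, Fezf2 and Syt6, are shown to place them in the genome. They come from RefSeq (GRCm38.p6) and run from 250 bases before to 50 after the annotated start, written 5′ to 3′ on the gene's strand. Fezf2 lies on the minus strand at chr14:12345816-12346115, and for Syt6 the first of 3 listed starts is given, on the plus strand at chr3:103574995-103575294. Capitals mark matches to the motifs named with the promoter results, except the E-box, which is not marked.
Fezf2: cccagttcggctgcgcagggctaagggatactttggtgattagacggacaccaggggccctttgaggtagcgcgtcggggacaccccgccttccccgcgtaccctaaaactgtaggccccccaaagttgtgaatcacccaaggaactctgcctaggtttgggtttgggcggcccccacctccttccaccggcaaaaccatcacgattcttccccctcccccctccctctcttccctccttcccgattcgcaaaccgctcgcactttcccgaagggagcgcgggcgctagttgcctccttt
Syt6: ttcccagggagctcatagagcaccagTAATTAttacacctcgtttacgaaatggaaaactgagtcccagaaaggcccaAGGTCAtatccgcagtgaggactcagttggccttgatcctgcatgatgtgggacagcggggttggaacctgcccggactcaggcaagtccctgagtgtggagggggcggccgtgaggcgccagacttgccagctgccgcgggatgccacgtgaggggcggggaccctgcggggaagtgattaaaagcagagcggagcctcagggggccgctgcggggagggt

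Among the other layer 5 and mixed deep markers, Tox, an HMG-box protein, read 9.11 and 8.96 with fluoxetine, against 8.90 and 8.79 without. Its groups were apart but close, at a log2 difference of 0.19 (SE 0.08; limma, unadjusted p = 0.0496, adjusted p = 0.710). Its other probe sets differed by 0.17 and 0.0045. The main one no longer passed the unadjusted threshold without fluoxetine replicate 1 (0.12), fluoxetine replicate 2 (0.26) or untreated replicate 2 (0.13), nor after another quantile normalization (0.15) or without the intensity trend. Bcl11b, also known as Ctip2, acts downstream of Fezf2 in subcerebral neurons and differed by −0.07 (SE 0.11). Pcp4, a small regulator of calmodulin, differed by −0.09 (SE 0.07), Tshz2, a teashirt zinc-finger protein of near-projecting layer 5 neurons, by −0.11 (SE 0.08), and Crym, a thyroid hormone binding protein, by 0.02 (SE 0.05). Sulf2, an enzyme that trims sulfate from heparan sulfate, differed by 0.0064 (SE 0.04); the signs of Crym and Sulf2 turned negative after another quantile normalization. The probe sets that Etv1 shares with the predicted gene Gm5454 were described without a test. The brightest read 11.34 and 11.04 with fluoxetine, against 11.08 and 11.06 without, so fluoxetine replicate 2 lay below both untreated arrays.

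Of the 7 layer 6 markers, 2, Syt6 and Tle4, were lower at an unadjusted p below 0.05, against 3.51% of all genes, and 5 did not pass. The median log2 difference was −0.12, with 2 positive and 5 negative, where 42.5% of all genes were positive. Of the 7, 4 lay above the median level of all genes. Above that level 197 of 9097 genes were lower at that threshold and 4723 were positive. At or below it, where Syt6 lay, 441 of 9096 were lower and 3006 were positive. For 5 of the 7 the groups overlapped, as they did for 11317 of 18193 genes. Mean log2 intensity over the 7 was 8.59 and 8.63 with fluoxetine, against 8.75 and 8.67 without. Syt6, a synaptotagmin used as a marker of corticothalamic neurons, had the largest negative difference of the members. It read 6.01 and 5.94 with fluoxetine, against 6.40 and 6.42 without. The groups were far apart beside their spread, with means of 5.97 ± 0.05 with fluoxetine and 6.41 ± 0.02 without (SD, n = 2 each). The log2 difference was −0.44 (SE 0.12; limma, unadjusted p = 0.00682, adjusted p = 0.696), which is 0.737 of the untreated level. It was between −0.48 and −0.41 when any 1 array was left out, and −0.43 without untreated replicate 2. Without fluoxetine replicate 2, at −0.41, it did not pass the unadjusted threshold.

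All 4 probe sets of Syt6 gave negative differences. The second by level differed by −0.09 with overlapping groups, and the dimmest 2 by −0.40 and −0.47 with both fluoxetine arrays below both untreated ones. The last of these had a mean of only 1.16, where a log2 difference depends most on how background was taken off. Genes at or below the median level leaned downward as a whole: their median difference was −0.07, against 0.0031 above it, and Syt6 lay below it.

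Tle4, a Groucho-type corepressor of corticothalamic neurons, read 10.80 and 10.84 with fluoxetine, against 10.90 and 10.99 without. The groups were apart by a small step, a log2 difference of −0.12 (SE 0.05; limma, unadjusted p = 0.0489, adjusted p = 0.710). It no longer passed the unadjusted threshold without fluoxetine replicate 1 (−0.11), fluoxetine replicate 2 (−0.14) or untreated replicate 2 (−0.08), nor after array medians were subtracted (−0.09) or without the intensity trend. Its second probe set by level, at a mean of 6.80, went the other way: it differed by 0.12, with both fluoxetine arrays above both untreated ones. The third differed by −0.27, with both fluoxetine arrays below, at a mean of only 3.42. Tbr1, the T-box factor that specifies layer 6 and represses Fezf2 in the mouse embryo, read 10.01 and 9.63 with fluoxetine, against 9.73 and 9.78 without. The fluoxetine arrays lay on either side of the untreated ones, and the log2 difference of 0.06 (SE 0.12) became 0.26 without fluoxetine replicate 2 and −0.13 without fluoxetine replicate 1.

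Foxp2, a forkhead factor of layer 6, differed by −0.16 (SE 0.09) on its main probe set, while its other 5 ran from −0.0025 to 0.19. Ntsr1, a neurotensin receptor of corticothalamic neurons, differed by −0.13 (SE 0.11) and Rprm, a target of p53, by −0.03 (SE 0.06), and the value of Rprm turned to 0.01 after array medians were subtracted. Ntng2, an adhesion protein of the netrin-G family, differed by 0.11 (SE 0.24). Its untreated arrays were the widest apart of any member, at 5.97 and 5.24, around 5.60 and 5.84 with fluoxetine.

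The 3 markers of layer 6b did not move together. Ccn2, a matricellular growth factor, read 10.23 and 10.28 with fluoxetine, against 10.22 and 10.21 without, a log2 difference of 0.04 (SE 0.05). Cplx3, a complexin that acts on vesicle release, differed by −0.03 (SE 0.07), or 0.0025 after array medians were subtracted. Nxph4, a neurexophilin, read 7.28 and 7.36 with fluoxetine, against 7.69 and 7.25 without. Its difference of −0.15 (SE 0.15) was 0.07 without untreated replicate 1 and −0.38 without untreated replicate 2.

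**Figure D2:**
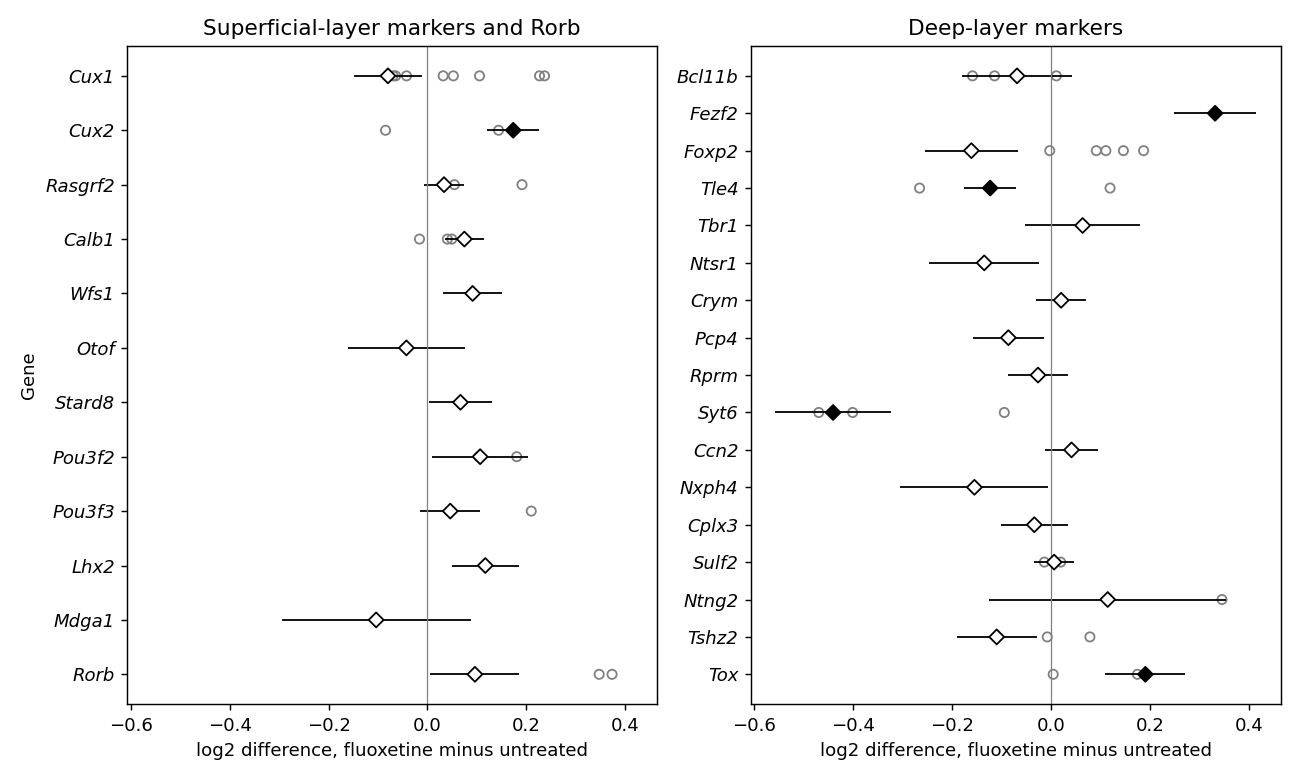
Log2 difference, fluoxetine minus untreated, of each marker (x axis): diamonds with limma SE bars show the main probe set, filled where the unadjusted p was below 0.05, and open grey circles show the gene's other probe sets. Syt6 at −0.44 and Fezf2 at 0.33 lie farthest out, and for Rorb the other probe sets, at 0.35 and 0.37, lie right of the main one at 0.10.

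Of the 6 members also known from striatal neurons, 3 (Bcl11b, Foxp2 and Pcp4) were highest on untreated replicate 2, as all 20 striatal markers were. Among all genes 36.1% were highest on that array, and so were 5 of the 23 members not known from striatal neurons. Bcl11b read 11.17 and 11.32 with fluoxetine, against 11.14 and 11.49 without. Foxp2 read 9.26 and 9.40 with fluoxetine, against 9.37 and 9.61 without. Pcp4 read 13.68 and 13.68 with fluoxetine, against 13.64 and 13.88 without. In each of these genes untreated replicate 2 was the highest array, by 0.22 to 0.28 over the mean of the other 3, while the 20 striatal markers were higher there by a mean of 0.84. Without untreated replicate 2 the log2 differences were 0.11 for Bcl11b, −0.04 for Foxp2 and 0.04 for Pcp4. Without untreated replicate 1, where untreated replicate 2 alone stood for its group, they were −0.24, −0.28 and −0.21. The other 3 were not highest on untreated replicate 2. Wfs1 and Crym were lowest on it, by 0.14 and 0.07 below the mean of the other arrays, and Calb1 differed by −0.04. Without that array the log2 differences were 0.03 for Wfs1, −0.02 for Crym and 0.08 for Calb1. Among the 23 members not known from striatal neurons, that array was the lowest for 11, where over all genes it was the lowest for 17.2%. The part of the striatal and myelin signal in these values was not tested.

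**Figure D3:**
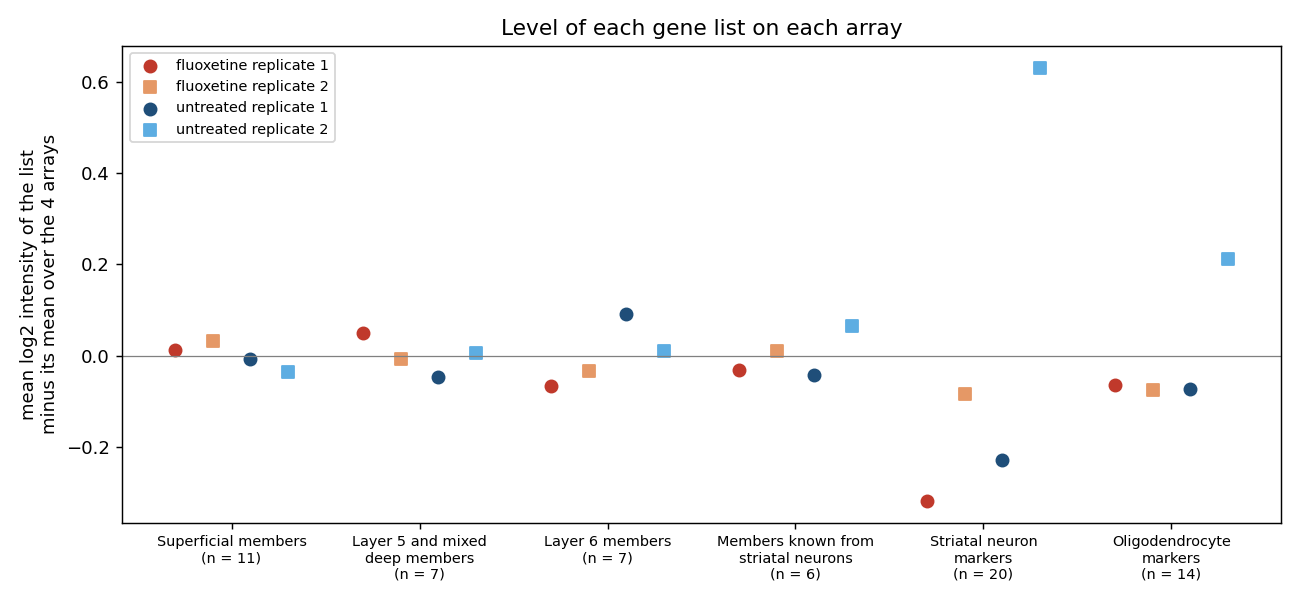
Mean log2 intensity of 6 gene lists on each array, minus the list's mean over the 4 arrays (y axis), with fluoxetine arrays left of untreated arrays in each list. Untreated replicate 2 lies far above the others for the striatal markers, at a mean of 9.68 against 8.73 to 8.96, while the layer markers spread over a much narrower range.

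Superficial and deep markers were set side by side on each array. The mean log2 intensity of superficial members minus that of deep members was 0.08 and 0.10 with fluoxetine, against 0.0057 and 0.02 without. Both fluoxetine arrays were above both untreated arrays in this quantity, which is a description of 28 chosen genes and carries no test. The median difference of superficial members exceeded that of deep members by 0.10. It was 0.06 without fluoxetine replicate 1, 0.08 without untreated replicate 1, and 0.07 without the 6 genes also known from striatal neurons. Layer genes outside the set had the opposite order. Their median log2 difference was −0.01 for 6 other superficial-layer genes and 0.03 for 15 other deep-layer genes.

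**Figure D4:**
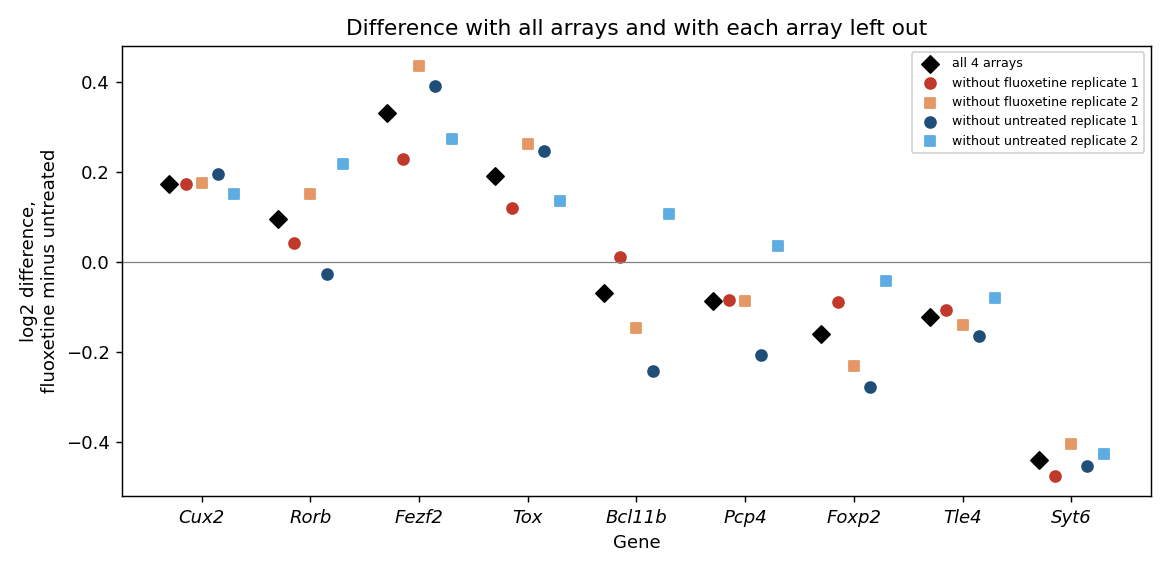
Log2 difference, fluoxetine minus untreated (y axis), of 9 markers with all 4 arrays (black diamonds) and with each array left out in turn (coloured as the array that was left out). Syt6 stays between −0.48 and −0.41 and Fezf2 between 0.23 and 0.43, whereas Bcl11b runs from −0.24 to 0.11 and Pcp4 from −0.21 to 0.04.

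Layer genes outside the set, and markers of other cell types, were counted in the same fit. At an unadjusted limma p below 0.05, 3.45% of all genes were higher and 3.51% lower. Among genes above the median level the shares were 5.73% and 2.17%. Of 15 other deep-layer genes, 2 were higher at an unadjusted limma p below 0.05, 0 were lower and 13 did not pass, with a median log2 difference of 0.03. Bcl6, a transcriptional repressor, read 9.37 and 9.35 with fluoxetine, against 9.07 and 9.19 without. Sox5, which controls the timing of deep-layer neuron production, read 9.22 and 9.09 with fluoxetine, against 8.96 and 8.92 without. In both genes the groups did not overlap, with log2 differences of 0.23 (SE 0.07) and 0.22 (SE 0.07). Of 6 measured other superficial-layer genes, 0 had an unadjusted p below 0.05 and the median was −0.01. Among 9 general markers of cortical excitatory neurons, 1 was higher, 0 were lower and the median was −0.04. That gene was Neurod6, a bHLH factor of these neurons, at 11.29 and 11.11 with fluoxetine, against 11.04 and 10.89 without, a log2 difference of 0.24 (SE 0.08). Of 11 interneuron markers and 7 markers of claustrum and insula, 0 had an unadjusted p below 0.05, with medians of 0.0031 and 0.00060. Of 14 oligodendrocyte markers 4 were lower and 0 higher (median −0.13), of 10 astrocyte markers 3 were higher and 0 lower (median 0.03), and of 20 striatal markers 1 was lower and 0 higher (median −0.33). Untreated replicate 2 was the highest array for 13 of these oligodendrocyte markers and for all 20 striatal ones. None of the 10 microglial, 10 endothelial and pericyte and 6 hippocampal markers had an unadjusted p below 0.05, with medians of −0.06, 0.01 and −0.10.

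Many members are transcription factors with known binding motifs, and the promoter windows of the members were searched for them on both strands. A window was found in RefSeq for 23 of the 30 genes, at the first start listed. The nuclear receptor half-site AGGTCA, of the kind that Rorb binds, was in 4 of 23 windows (Cplx3, Pcp4, Stard8 and Syt6), 17.4% against 16.0% of 27025 windows of all genes. The LIM-homeodomain core TAATTA was in 2 (Syt6 and Tbr1), 8.7% against 5.31%. The forkhead motif TGTTTAC was in 2 (Cux1 and Pou3f3), 8.7% against 3.55%, and the ETS core CCGGAA in 1 (Pou3f3), 4.35% against 15.2%. The T-box motif GGTGTGA was in 0 of 23 (3.96% of all), the POU octamer in 0 (1.75%) and the Cut motif ATCGAT in 0 (0.881%). In the sequences shown above, the Syt6 window holds TAATTA and AGGTCA and the Fezf2 window none of these motifs. The member windows were richer in G and C, with a median of 62.7% against 52.7% of all windows.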

How the data were processed

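The deposited table gives a log2 intensity for each probe set, which the authors computed with RMA and the affy package, per the submitters' processing notes, which also name limma; versions and the background model are not stated in what was used here. The table held 45101 probe sets, 64 of them array controls. Symbols came from the platform annotation: 34945 probe sets had 1 symbol, 932 had several and 9160 were unnamed here. Values ran from −0.08 to 15.14, from which a log base of 2 was inferred. Array medians were 6.44 and 6.47 with fluoxetine and 6.50 and 6.48 without, and arrays correlated at 0.996 to 0.997.

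Each gene was represented by its brightest probe set, with no filter on low values. Groups were compared with limma 3.58.1 in R 4.3.3 (lmFit, trended eBayes; two-sided tests), adjusting by Benjamini-Hochberg over 18193 genes, with 5.15 prior beside 2 residual degrees of freedom. Every SE and p named here, unless another source is stated, is from that fit. A difference is fluoxetine minus untreated. Background left in or over-corrected bends log2 differences of dim probe sets. The members and lists were chosen with earlier results of these data known. All 30 members were to be named, and of other lists at most 3 genes each at an unadjusted p below 0.05, or, for neighbouring tissue, those with the widest range over the arrays, such as Drd2; Slc17a7 was added after its values were seen. Alternatives were other normalizations, probe set choices, a level filter, no trend and leaving out each array.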

Additional observations from a re-analysis of the deposited data

How the results depend on the processing

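The number of arrays limits every comparison, and dim probe sets lie nearest to background. No paired analysis was possible because the labels give the groups no shared replicate numbers. Genes at an adjusted limma p below 0.05 numbered 1 when each gene took its most variable probe set, and 0 to 1 with an array left out. The superficial count of 1 was 0 with probe sets averaged, 0 with the most variable one, and 0 to 2 with an array left out. The deep count of 4 was 2 with probe sets averaged, 1 with the most variable one, 2 among genes above the median level, 2 without the intensity trend and 1 to 8 with an array left out. The superficial median of 0.067 was 0.029 after another quantile normalization, 0.103 after subtracting array medians, 0.078 with probe sets averaged, 0.117 with the most variable one, 0.046 without the genes known from striatal neurons, and 0.044 to 0.074 with an array left out. The deep median of −0.034 was −0.069 after quantile normalization, 0.0025 after subtracting array medians, −0.013 with probe sets averaged, −0.013 with the most variable one, and −0.049 to −0.0057 with an array left out. The excess of superficial over deep, 0.10, was 0.13 with the most variable probe set, 0.073 without the genes known from striatal neurons, and 0.059 to 0.094 with an array left out. For single members, 27 of 312 values changed sign, over 16 members. The other 13, among them Cux2, Fezf2, Tox, Tle4 and Syt6, kept their sign under every alternative run. Many of the 312 could not change sign, since the level filter and the fit without the intensity trend reuse the main difference. The probe set choices also reuse it for the 14 members with 1 probe set, such as Fezf2. With probe sets averaged the differences were 0.044 for Cux1 and 0.062 for Foxp2; with the most variable one they were 0.23 for Cux1, 0.19 for Foxp2, −0.013 for Sulf2 and 0.079 for Tshz2. After quantile normalization they were −0.019 for Crym and −0.026 for Sulf2, and after subtracting array medians 0.010 for Rprm and 0.0025 for Cplx3. With an array left out the ranges were −0.17 to 0.081 for Otof, −0.030 to 0.12 for Pou3f3, −0.38 to 0.17 for Mdga1, −0.026 to 0.22 for Rorb, −0.24 to 0.11 for Bcl11b, −0.13 to 0.26 for Tbr1, −0.022 to 0.063 for Crym, −0.21 to 0.035 for Pcp4, −0.11 to 0.053 for Rprm, −0.38 to 0.066 for Nxph4, −0.088 to 0.021 for Cplx3, −0.011 to 0.023 for Sulf2 and −0.25 to 0.48 for Ntng2. The causes of these shifts were not tested.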
